A study of Mus musculus with 6 samples.

Results

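The actins, troponins and tropomyosins of striated muscle were followed in mice with chronic heart failure after myocardial infarction (CHF mice) and in sham-operated mice. The 10 genes were chosen by name from the 35485 features of each library: the actins Actc1 and Acta1, the inhibitory troponins Tnni3 and Tnni1, the troponin T genes Tnnt2 and Tnnt1, the troponin C gene Tnnc1, and the tropomyosins Tpm1, Tpm2 and Tpm3. All 10 were listed in all 6 libraries. In the left ventricle of CHF mice Acta1, the skeletal muscle actin, was 3.92-fold higher than in sham-operated mice, and Tpm2 was 2.74-fold higher. By RPKM none of the main heart muscle isoforms stood more than 0.01 above its sham level on the log2 scale. Tnni3 was 1.67-fold lower by RPKM (log2 ratio -0.74), short of the threshold for a call. It was called lower under TMM (-1.01), under DESeq2 size factors (-1.03) and once the 10 most abundant features were dropped from the scaling (-0.92). It was not called by CPM (-0.72), and relative to the median of a heart muscle cell list it stood at only -0.39.

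RNA from hippocampus, prefrontal cortex and left ventricular myocardium of C57BL/6 mice (C57BL/6N in the study's methods) was sequenced 8 weeks after operation. CHF mice had undergone permanent ligation of the left anterior descending coronary artery, and controls had undergone thoracotomy without a suture to the artery. Per the study's methods the mice were male and were obtained as young animals, some weeks of age, before the operation. The labels give no age. RNA of 3 CHF mice or of 6 sham-operated mice was pooled for each tissue, so each group had 1 library per tissue, and the spread between mice is unknown. Neither the labels nor the study's methods say whether the sequenced piece of the left ventricle held infarct scar, border or remote muscle.

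The thin filament of the sarcomere is a polymer of actin along which tropomyosin lies, with a troponin complex at regular intervals. Troponin C binds calcium, troponin I holds the filament off in the absence of calcium, and troponin T ties the complex to tropomyosin. Each subunit comes in isoforms. Adult mouse ventricle is known to use cardiac actin (Actc1), cardiac troponin I (Tnni3), cardiac troponin T (Tnnt2), troponin C of slow and cardiac muscle (Tnnc1) and alpha-tropomyosin (Tpm1). The embryonic heart also uses slow skeletal troponin I (Tnni1) and skeletal actin (Acta1), and renewed Acta1 transcription is a familiar feature of the overloaded rodent heart. Tnnt1 encodes troponin T of slow skeletal muscle. Tpm2 and Tpm3 encode beta- and gamma-tropomyosin, which slow skeletal, smooth muscle and non-muscle cells also use.

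Acta1 and Actc1 encode nearly the same protein, so whether a read can be placed on 1 of them matters for what follows. The first 90 bases of the coding sequences are shown from the GENCODE vM21 annotation of GRCm38, with Acta2, the actin of smooth muscle, beside them. Capitals mark bases that differ from Actc1.
Actc1: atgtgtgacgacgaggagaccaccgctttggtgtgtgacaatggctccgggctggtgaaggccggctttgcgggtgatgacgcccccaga
Acta1: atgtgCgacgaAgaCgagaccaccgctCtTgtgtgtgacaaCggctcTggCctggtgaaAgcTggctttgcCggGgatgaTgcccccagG
Acta2: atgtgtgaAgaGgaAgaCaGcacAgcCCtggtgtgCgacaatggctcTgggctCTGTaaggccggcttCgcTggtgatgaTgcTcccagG
Acta1 differed from Actc1 at 14 of these bases and Acta2 at 19. Over the whole coding sequence of 1134 bases, Acta1 and Actc1 differed at 157 and were 86.2% identical, and the longest stretch without a difference was 29 bases. No window of 50 bases from the Actc1 transcript occurred in another gene. Of the 1397 windows of Acta1, 31 (2.22%) did, and the genes sharing them included the cytoplasmic actins Actb and Actg1. In the files, 96.2 and 96.6% of the Acta1 reads of left ventricle were unique, and over 99.9% of those of Actc1.

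The stretches before the start sites of both actin genes carry a CArG box, the element that serum response factor (SRF) is known to bind. The 250 bases before the RefSeq start on GRCm38.p6, both on the minus strand, are shown with the CArG box in capitals, for Acta1 at chr8:123894776-123895025 and for Actc1 at chr2:114052876-114053125.
Acta1: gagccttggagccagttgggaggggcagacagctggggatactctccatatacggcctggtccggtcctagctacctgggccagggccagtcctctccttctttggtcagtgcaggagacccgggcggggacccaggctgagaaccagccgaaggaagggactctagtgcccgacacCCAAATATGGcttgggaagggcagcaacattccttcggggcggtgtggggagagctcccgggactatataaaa
Actc1: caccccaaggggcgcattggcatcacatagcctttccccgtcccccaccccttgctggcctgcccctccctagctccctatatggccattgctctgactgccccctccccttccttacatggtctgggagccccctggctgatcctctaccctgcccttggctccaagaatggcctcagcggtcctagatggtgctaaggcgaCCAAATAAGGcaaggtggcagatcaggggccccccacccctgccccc
The box begins 73 bases before the listed start of Acta1 and 47 before that of Actc1. Among the 10 genes, whose 13 listed starts all had a sequence, only these 2 held a CArG box in the window, against 1.47% of 32851 promoters of the same length. CATTCC, the core of the element bound by TEAD factors, was found on either strand in Acta1, Tnnt2, Tnnc1 and Tpm1, against 12.6% of all promoters. TATAAA, searched in the same way, was found in Acta1 and Tnnt1, against 12.4%. These are matches of letters, and binding was not measured.

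Levels are given in RPKM, reads scaled by the listed gene length in kilobases and by the gene reads of the library, or in CPM, unique gene reads scaled to the library total without a length. The listed length is the genomic span with introns, so genes with long introns have low RPKM for their transcript. Conditions were compared where the CHF and the sham library of a tissue each held 100 or more unique reads of a gene, which is called measured here. A gene was called higher or lower in CHF where its RPKM differed from sham by 0.9 or more on the log2 scale. With 1 library per group no test between conditions was possible. The 95% intervals are exact Clopper-Pearson intervals for the ratio of unique gene reads and cover counting error only, not the spread between mice. The ratio of unique reads differed from that of RPKM by at most 0.08 on the log2 scale in left ventricle, the largest gap being that of Tpm3. Gene positions are those of the files, on GRCm38.p1, and each spans exons, introns and untranslated ends.

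The libraries held 15.7 to 25.9 M unique gene reads. In left ventricle the 10 genes took 2.21% of them in the CHF library and 2.56% in the sham library. In brain they took 0.0279 to 0.0335%. The 10 most abundant features of any kind held 17.6% of the unique reads of the CHF ventricle and 28.0% of those of the sham ventricle. Over 9771 measured genes the ventricular log2 ratios had a median of 0.22. Scaling by TMM moved that median by -0.28 and scaling by DESeq2 size factors by -0.29, so both are given for the 10 genes where they change a direction or a call.

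Heart muscle markers identified the ventricle. All 20 of the heart muscle cell list were listed there with an RPKM above 0, summing to 4442 RPKM in CHF and 6093 in sham. In the ventricle the atrial markers Sln and Bmp10 and the skeletal muscle regulators Myod1 and Myf6 had 0 reads in both libraries. These were 2 of 7 atrial and 2 of 15 skeletal muscle genes, and the others of both lists had reads in the ventricle. The atrial list, which includes Nppa, summed to 2355 RPKM in CHF and 158 in sham, so atrial RNA is not excluded. In bulk tissue fewer cells of a type and less RNA per cell cannot be told apart.

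**Figure D1:**
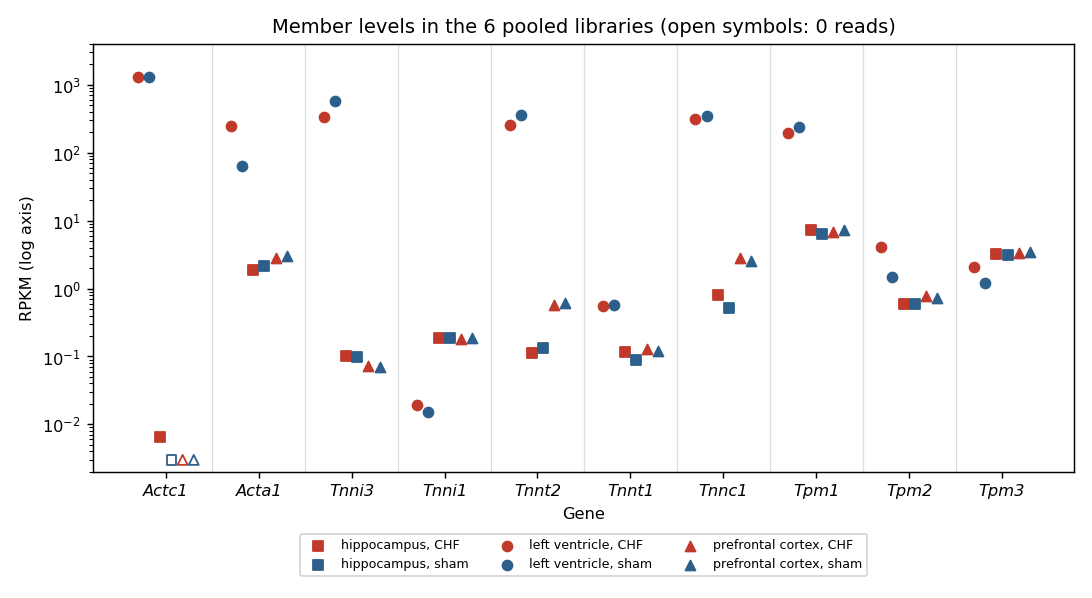
RPKM (log axis) of the 10 genes in the 6 pooled libraries, 1 symbol per library, with circles for left ventricle, squares for hippocampus, triangles for prefrontal cortex, red for CHF and blue for sham; open symbols stand for 0 reads. Actc1, Tnni3, Tnnt2, Tnnc1 and Tpm1 lay between 197 and 1317 RPKM in left ventricle, whereas Tnni1 and Tpm3 were lower in left ventricle than in brain.

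Actc1, the main actin of the adult heart (chromosome 2, 114047289 to 114052811), stood at 1317 RPKM in the CHF ventricle (160974 unique reads) and at 1310 RPKM in the sham ventricle (124746). It was the gene with rank 2 by RPKM in the CHF library and rank 3 in the sham library. The levels were alike, with a log2 ratio of 0.01. On unique reads the log2 ratio was 0.03 (interval 0.02 to 0.04). Scaled by TMM it was -0.27 and by DESeq2 size factors -0.28, so its sign depended on the scaling.

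Acta1, the actin of skeletal muscle (chromosome 8, 123891767 to 123894736), stood at 250.2 RPKM in the CHF ventricle (15823 unique reads) and at 63.8 RPKM in the sham ventricle (3155). This was a log2 ratio of 1.97 (interval 1.93 to 2.04), 1.69 under TMM and 1.68 under DESeq2 size factors. Of all measured genes, 98.1% had a lower ratio than Acta1. In rank by RPKM the gene moved from 127 in sham to 36 in CHF.

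The RNA of these 2 actins therefore differed in its make-up between the libraries. By RPKM, Acta1 was 16.0% of the sum of Acta1 and Actc1 in CHF and 4.64% in sham. By unique reads, which weigh no length, the share was 8.95% (exact interval 8.82 to 9.08) in CHF and 2.47% (2.38 to 2.55) in sham. Per kilobase of transcript it was 9.10% and 2.51%. The size of the share depended on the length used, whereas length cancels out of the change in the ratio of Acta1 to Actc1. That ratio was 3.90-fold higher in CHF by RPKM and 3.89-fold higher by unique reads. The summed RPKM of both actins had a log2 ratio of 0.19.

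Tnni3, the inhibitory troponin of the adult heart (chromosome 7, 4518308 to 4522443), stood at 341 RPKM in CHF (31169 unique reads) and at 570 RPKM in sham (40607). The log2 ratio was -0.74 (interval of unique reads -0.74 to -0.70). It did not pass the threshold by RPKM. It was called lower under TMM (-1.01) and under DESeq2 size factors (-1.03). Of all measured genes, 2.54% had a lower ratio than Tnni3.

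Tnni1, the inhibitory troponin of slow skeletal muscle and of the embryonic heart (chromosome 1, 135799421 to 135810989), had 5 reads in the CHF ventricle and 3 in the sham ventricle and was not measured. This was 0.252 CPM in CHF (interval 0.0817 to 0.587) and 0.191 CPM in sham (0.0394 to 0.559). The intervals overlapped. Tnni1 was 0.0160% (interval 0.00521 to 0.0374) of the unique reads of the pair Tnni1 and Tnni3 in CHF and 0.00739% (0.00152 to 0.0216) in sham. A difference in Tnni1 was not detectable at this depth.

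Tnnt2, the troponin T of heart muscle (chromosome 1, 135836334 to 135852268), stood at 255 RPKM in CHF (89991 unique reads) and at 365 RPKM in sham (100338), a log2 ratio of -0.52. Under TMM the ratio was -0.79 and under DESeq2 size factors -0.81. It did not pass the threshold under any of the 3 scalings. Tnnt1 (chromosome 7, 4504663 to 4515975) stood at 0.547 RPKM in CHF (137 unique reads) and 0.574 in sham (111), a log2 ratio of -0.07 (interval -0.41 to 0.34). The slow skeletal isoform made up 0.152% (interval 0.128 to 0.180) of the unique reads of the pair in CHF and 0.111% (0.0909 to 0.133) in sham. These intervals overlapped, which does not show that the shares were equal. The ratio of Tnnt1 to Tnnt2 was 1.36-fold higher in CHF by RPKM and 1.38-fold higher by unique reads. Between the libraries Tnnt2 differed more than Tnnt1.

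Tnnc1, the calcium-binding subunit (chromosome 14, 31208312 to 31211711), stood at 319 RPKM in CHF (23972 unique reads) and at 347 RPKM in sham (20354), a log2 ratio of -0.12. It has no sister isoform among the 10. Its fast skeletal counterpart Tnnc2 had 11 and 8 unique reads in the ventricle libraries.

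The 4 troponin genes other than Tnnc1 and the fast skeletal ones lie in neighboring pairs. In GENCODE vM21, Tnni3 and Tnnt1 are 1922 bases apart on chromosome 7, and Tnni1 and Tnnt2 are 25364 bases apart on chromosome 1. In each pair the gene of the adult heart had 31169 or more unique reads in each ventricle library, and the neighbor had at most 137. The levels of neighbors thus differed widely in the same tissue.

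Tpm1, the main tropomyosin of the heart (chromosome 9, 67022593 to 67049213), stood at 197 RPKM in CHF (115999 unique reads) and at 243 RPKM in sham (111678), a log2 ratio of -0.31. Tpm2, beta-tropomyosin (chromosome 4, 43514712 to 43523388), stood at 4.04 RPKM in CHF (774 unique reads) and at 1.48 in sham (221). This was a log2 ratio of 1.45 (interval 1.25 to 1.69), 1.18 under TMM and 1.16 under DESeq2 size factors. The ratio of Tpm2 to the other tropomyosins was 3.36-fold higher in CHF. Tpm2 was nonetheless a minor isoform, with 0.657% (interval 0.612 to 0.705) of the unique tropomyosin reads in CHF and 0.197% (0.172 to 0.224) in sham.

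Tpm3, gamma-tropomyosin (chromosome 3, 90072651 to 90100902), stood at 2.06 RPKM in CHF (1039 unique reads) and at 1.22 RPKM in sham (461), a log2 ratio of 0.75 (interval of unique reads 0.67 to 0.99). It missed the threshold by RPKM, under TMM (0.54) and under DESeq2 size factors (0.52). Its share of the unique tropomyosin reads was 0.882% (interval 0.829 to 0.937) in CHF and 0.410% (0.374 to 0.449) in sham. The value of Tpm3 is uncertain, because 1363 of the 2184 windows of 50 bases in its transcript (62.4%) occur in other annotated genes, Tpm3-rs7 among them. In the ventricle 77.3 to 80.7% of its reads were unique, against at least 99.1% for each of the others with over 100 reads except Acta1. With the unique reads of Tpm3-rs7 added, a sum chosen after seeing the data, the log2 ratio was 0.96 (interval 0.83 to 1.09) and passed the threshold.

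**Figure D2:**
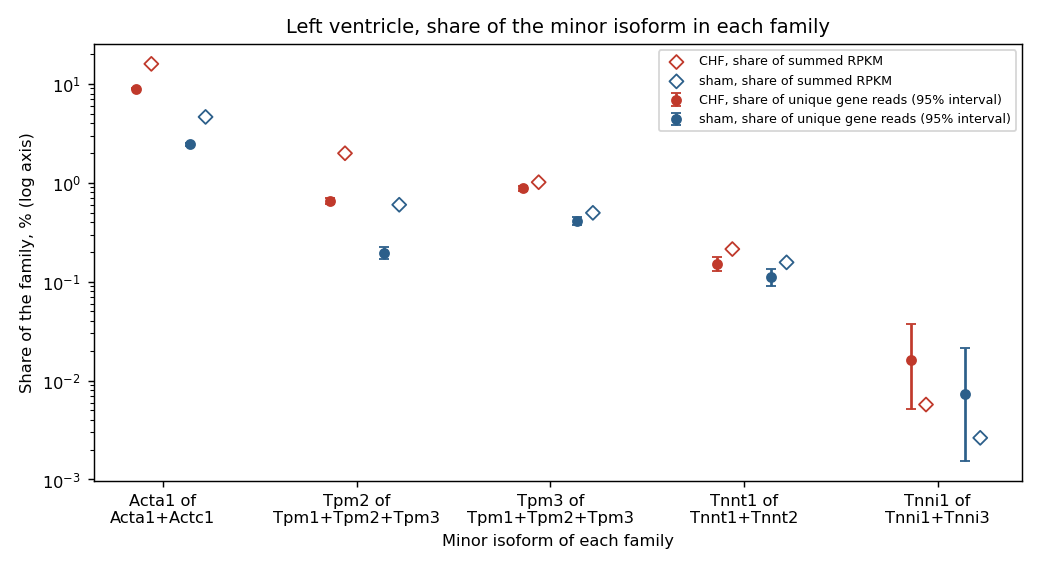
Share (%, log axis) of the minor isoform in its family in left ventricle, CHF in red and sham in blue; filled points give the share of unique gene reads with the 95% exact interval (counting error only), and open diamonds the share of summed RPKM. In CHF Acta1 held 8.95% of its family's unique reads against 2.47% in sham, and Tpm2 0.657% against 0.197%. The intervals of Tnnt1 and of Tnni1 overlap, which does not show that their shares were equal.

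In all, 9 of the 10 genes were measured in left ventricle, with 2 higher (Acta1 and Tpm2) and 0 lower, against 10.5% higher and 1.54% lower of all 9771 measured genes. Under TMM 2 were higher and 1, Tnni3, was lower, against 6.57 and 3.88%, and under DESeq2 size factors the same genes were called, against 6.31 and 4.13%. The median log2 ratio of the 9 was -0.07, below that of all measured genes by RPKM. The 5 main heart muscle isoforms ranged from -0.74 (Tnni3) to 0.01 (Actc1).

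The RNAs of subunits that work together in 1 filament thus did not keep the same proportions in the libraries. Protein of these genes was not measured. The RPKM ratio of Actc1 to Tnni3 was 3.86 in CHF and 2.30 in sham, and that of Tnni3 to Tnnc1 was 1.07 and 1.64. These ratios rest on listed lengths with introns. Per kilobase of longest annotated transcript, Actc1 to Tnni3 was 3.20 in CHF and 1.90 in sham, and Tnni3 to Tnnc1 was 1.03 and 1.58. Tnnt2 shows how far the length matters for levels. By RPKM it lay below Tnni3 in sham, whereas per kilobase of transcript it stood at 5328 CPM and Tnni3 at 2837 CPM.

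The heart muscle cell list offers another reference. Of its 19 measured genes, 17 had a log2 ratio below 0 and the median was -0.35, with 0 higher and 2 lower, against 1.54% lower among all genes: Myh6, which encodes alpha myosin (-0.99), and Atp2a2, which encodes the SERCA calcium pump (-0.98). Under TMM and DESeq2 size factors 3 were lower, against 3.88 and 4.13% of all genes. The gene added was Ryr2, the calcium release channel (-1.13 under TMM). Myh6 had the highest RPKM of the list, at 663 RPKM in CHF and 1317 in sham. Relative to the median of that list, Tnni3 stood at -0.39, Tnnt2 at -0.16, Tpm1 at 0.05, Tnnc1 at 0.23 and Actc1 at 0.36. Acta1 (2.33), Tpm2 (1.81) and also Tpm3 (1.10) were above 0.9 on that scale.

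**Figure D3:**
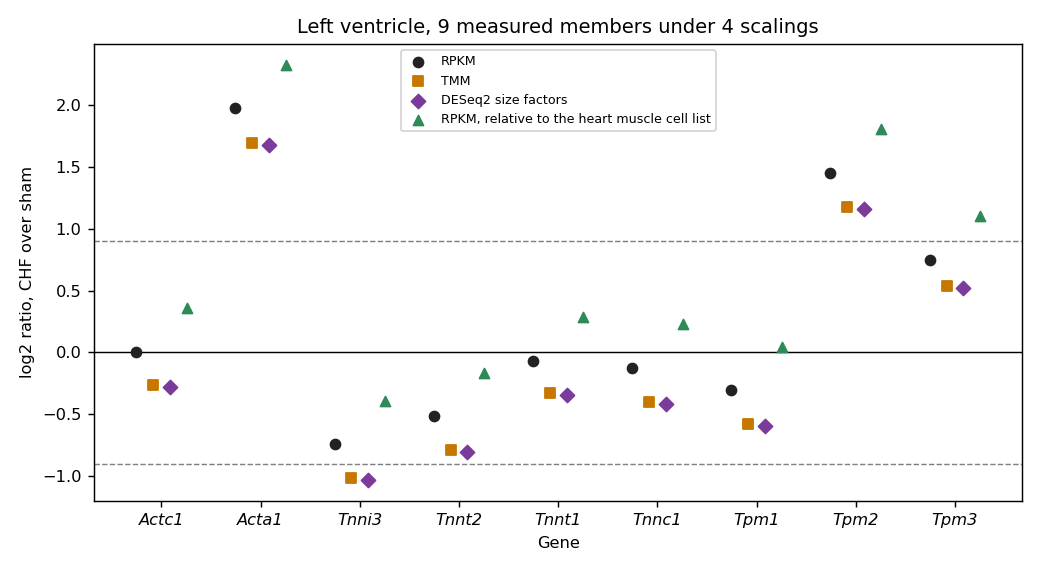
Log2 ratio, CHF over sham, of the 9 measured genes in left ventricle under 4 scalings: RPKM, TMM, DESeq2 size factors, and RPKM relative to the median of the heart muscle cell list; dashed lines mark 0.9 and -0.9. Acta1 and Tpm2 lie above the upper line under all 4, Tnni3 lies below the lower line under TMM and DESeq2 size factors, and Tpm3 lies above the upper line relative to the heart muscle cell list.

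The lists of other cell types are given beside these values. The shares to set beside the counts of this paragraph were 10.5% higher and 1.54% lower of all measured genes by RPKM. Under TMM they were 6.57 and 3.88%, and under DESeq2 size factors 6.31 and 4.13%. All 9 measured genes of the fibroblast and matrix list were higher (median 3.27), and the list summed to 308 RPKM in CHF and 41.8 in sham. Its 6 largest ratios were those of Postn (4.44), Fn1 (3.74), Col1a1 (3.36), Col1a2 (3.28), Col3a1 (3.27) and Lum (3.20), all of secreted matrix proteins, and Lum had its highest RPKM, 56.2 in CHF and 6.09 in sham. The macrophage list, with 6 of 7 measured genes higher, summed to 107 and 27.9 RPKM. They were Cx3cr1 (2.42), Lyz2 (2.03), Emr1 (1.84), Itgam (1.75), Mrc1 (1.55) and Csf1r (1.37), with Lyz2 at the highest RPKM (84.1 and 20.6). The smooth muscle and pericyte list, with 4 of 11 measured genes higher and 1 lower, summed to 436 and 331 RPKM, most of it from Des, desmin (370 and 273), which heart muscle cells also express. Its higher genes were Tagln (1.87), Acta2 (1.51), Pdgfrb (1.05) and Myh11 (0.93), and Abcc9 was lower (-1.06). Under TMM and DESeq2 size factors 2 were higher, Tagln and Acta2, and 2 lower, Abcc9 and Smtn (-1.04 under TMM), and Pdgfrb (0.78) and Myh11 (0.66) were not called. None of the listed genes of these lists was at 0 total reads in both ventricle libraries. Tcf21 was listed with 0 unique reads, so only reads that were not unique were given to it. The part of these cells in the values of Tpm2, Tpm3 and the actins was not tested. Endothelial genes were called in neither direction in 8 of 8, with sums of 49.3 and 44.8 RPKM, and Cldn5 had the highest RPKM (23.8 and 16.7). Of 7 neuron genes 1 was measured in ventricle, Slc17a7, with a log2 ratio of 0.29. Of 7 atrial genes 3 were measured and 1 was higher, Nppa (3.92), which failing ventricle is also known to express. Under TMM and DESeq2 size factors Tbx5 was also called, as lower (-0.97 under TMM).

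The myosin heavy chains Myh1, Myh2 and Myh4 of fast skeletal muscle had 8, 4 and 1 unique reads in the CHF ventricle, where Acta1 had 15823, and 14, 5 and 7 in the sham ventricle. Of the 15 skeletal muscle genes 4 were measured, with 185 to 706 unique reads per library. By RPKM 1 was higher and 1 lower, against 10.5 and 1.54% of all genes. Mybpc2, a myosin-binding protein of fast muscle, had 706 reads in CHF and 312 in sham (log2 ratio 0.82). Casq1, the calcium store protein of skeletal muscle, had 248 and 190 (0.02). Myl1, a myosin light chain of fast muscle and embryonic heart, was higher (0.91), and Cacna1s, the skeletal muscle calcium channel, was lower (-1.26). Myl1 had the highest RPKM of the list in CHF (1.40). The list summed to 4.41 RPKM in CHF and 3.45 in sham. Under TMM and DESeq2 size factors Myl1 was not called. The part of skeletal muscle cells in the value of Acta1 was not tested.

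Of 8 isoforms of the same families outside the 10, 4 were measured in ventricle and 3 were higher by RPKM, against 10.5% of all genes: Acta2, smooth muscle actin (1.51), Actb, the cytoplasmic beta-actin (1.13), and Tpm4, a tropomyosin of non-muscle cells (0.92). Under TMM and DESeq2 size factors only Acta2 passed, against 6.57 and 6.31% of all genes higher. Actb had the highest RPKM of these, at 195 in CHF and 89.2 in sham. The troponin T gene of fast skeletal muscle, Tnnt3, had 94 and 15 unique reads and was not measured, since the sham library was below 100.

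Of 19 genes for thin filament length and assembly 18 were measured, with 4 higher and 1 lower, against 10.5 and 1.54% of all genes, and a median of 0.21, next to the 0.22 of all genes. Those higher were Tmod2 (1.46), a tropomodulin that caps the slow-growing end of actin filaments, Xirp2 (1.45), an actin-binding repeat protein of heart and skeletal muscle, Lmod1 (1.32), the smooth muscle leiomodin, and Cfl1 (0.96), the non-muscle cofilin that severs actin filaments. Tmod4, the tropomodulin of skeletal muscle, was lower (-1.18). Under TMM and DESeq2 size factors Cfl1 was not called and Fhod3, a formin of heart muscle, was called lower. This gave 3 higher and 2 lower, against 6.57 and 3.88% of all genes under TMM and 6.31 and 4.13% under DESeq2 size factors. The member with the highest RPKM in CHF was the filament-building leiomodin of heart, Lmod2, at 80.2 RPKM in CHF and 76.5 in sham (log2 ratio 0.07).

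Of the 10 kinases, phosphatases and regulators that act on the thin filament 9 were measured. By RPKM 0 were higher or lower, against 10.5 and 1.54% of all genes. Tnni3k, a kinase found in heart muscle that binds Tnni3, had a log2 ratio of -0.75. Under TMM and DESeq2 size factors it was the single gene of the list called, as lower, against 3.88 and 4.13% of all genes. Prkaca, the catalytic subunit of protein kinase A, which phosphorylates cardiac troponin I, had the highest RPKM, at 8.88 in CHF and 10.4 in sham. Pak1 had 305 unique reads in CHF and 34 in sham and was not measured.

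Of 10 transcription factors and cofactors of the SRF, MEF2, GATA and TEAD groups, which are known to act on these genes, 10 were measured. Of them 1 was higher and 1 lower by RPKM, against 10.5 and 1.54% of all genes. Srf itself had a log2 ratio of 0.13 and the highest RPKM of the list, at 15.4 in CHF and 14.1 in sham. Mkl1, a coactivator of SRF that responds to free actin, was higher by RPKM (1.05) but was not called under TMM or DESeq2 size factors. Hopx, a homeodomain protein that restrains SRF, was lower (-1.36 by RPKM) under all 3 scalings. It was the single gene of the list called under TMM and DESeq2 size factors, against 3.88 and 4.13% of all genes lower.

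**Figure D4:**
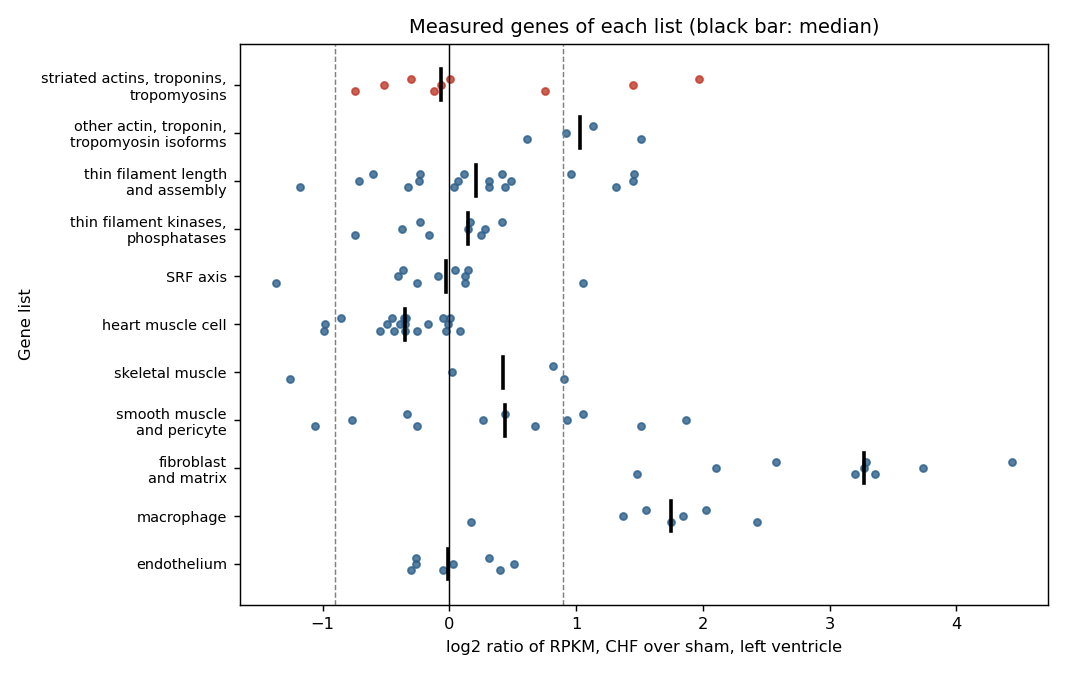
RPKM in CHF over RPKM in sham, as a log2 ratio, for each measured gene in left ventricle, by gene list; the black bar is the median and dashed lines mark 0.9 and -0.9. The 9 measured striated genes in red run from -0.74 to 1.97, the heart muscle cell list lies mostly below 0, and all 9 fibroblast and matrix genes lie above 0.9.

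In the brain none of the 10 genes passed the threshold between CHF and sham. In hippocampus 4 were measured and 0 were called, against 0.189% of 11086 genes in either direction. In prefrontal cortex 6 were measured and 0 were called, against 0.0558% of 10747. Calls were thus rare among all genes of both regions. In hippocampus the log2 ratios were -0.23 for Acta1, 0.20 for Tpm1, 0.01 for Tpm2 and 0.07 for Tpm3. In prefrontal cortex they ran from -0.10 (Tnnt2) to 0.14 (Tnnc1). The interval of Acta1 in hippocampus reached from -0.54 to 0.12, and that of Tpm2, the widest among these, from -0.34 to 0.36.

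**Figure D5:**
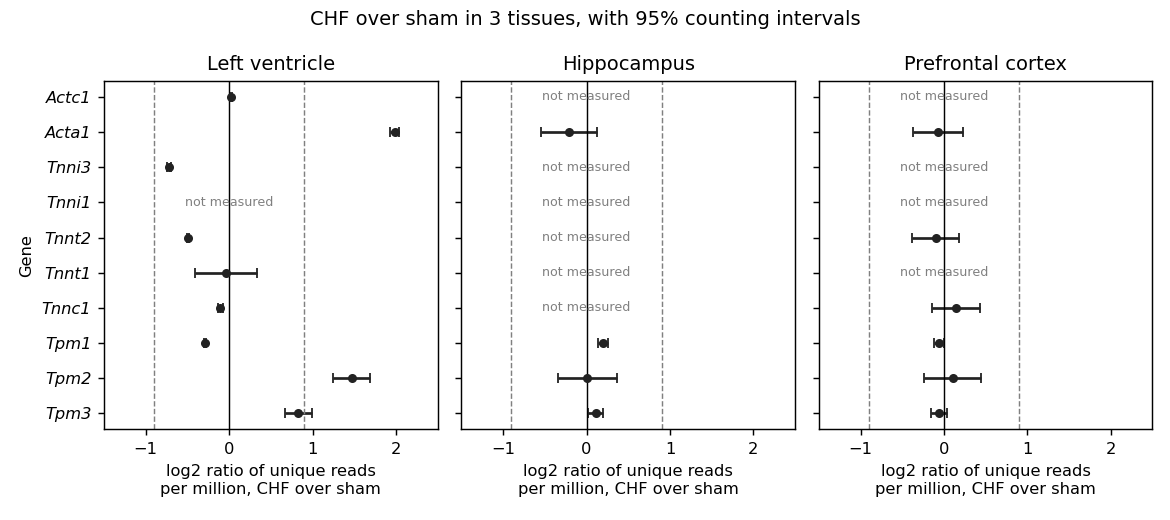
Log2 ratio of CPM, CHF over sham, with 95% exact intervals (counting error only), for the 10 genes in 3 tissues; dashed lines mark 0.9 and -0.9, and genes below 100 reads in either library are marked as not measured. Acta1 and Tpm2 lie above 0.9 in left ventricle alone, and every point of both brain regions lies between the dashed lines.

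The brain background differed by gene. Actc1 had 1 read in the CHF hippocampus and 0 in the other 3 brain libraries, so its ventricle level in sham was at least 60352-fold higher than in hippocampus and at least 58808-fold higher than in prefrontal cortex, against a floor of 3 reads in the brain library. Acta1, by contrast, had 150 to 207 unique reads in each brain library, 1.85 to 2.97 RPKM. It was 29.4-fold higher in sham ventricle than in hippocampus and 21.5-fold higher than in prefrontal cortex. Of the reads given to Acta1 in brain, 95.7 to 97.6% were unique. Actb, with which it shares some windows, had 16670 to 29557 unique reads there. On the annotation Acta1 overlaps Gm20388 on the opposite strand, and whether the counting used strand is not stated.

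Among the troponins the brain regions differed in Tnnt2 and Tnnc1, whereas the intervals of Tnni1, Tnni3 and Tnnt1 overlapped between them. Within each condition Acta1 was also lower in hippocampus without overlap, at 5.80 against 8.79 CPM in CHF and 6.71 against 9.23 in sham. Tpm3 was lower in hippocampus without overlap in sham only. Tpm1 differed without overlap in opposite directions, at 213 CPM in hippocampus against 201 in CHF and 186 against 209 in sham. Tnnt2 had 50 and 54 unique reads in the hippocampus libraries and 187 and 242 in the prefrontal cortex libraries. This was 1.93 CPM in CHF and 2.35 in sham hippocampus against 10.1 and 10.8 CPM in prefrontal cortex, and the exact intervals of the regions did not overlap. Tnnc1 had 3.02 CPM in CHF and 1.92 in sham hippocampus and 10.4 and 9.40 CPM in prefrontal cortex, again without overlap of the intervals between regions. In hippocampus Tnnc1 had 78 reads in CHF and 44 in sham and was not measured. Tnnc1 overlaps Nisch on the opposite strand. Tnni3, which overlaps Dnaaf3 on the same strand, had 5 to 12 unique reads in the brain libraries.

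Tnni1 and Tpm3 had their higher levels in the brain. Tnni1 reached 2.26 to 2.40 CPM in the 4 brain libraries, against 0.191 and 0.252 CPM in ventricle, and the intervals did not overlap. Tpm3, which many non-muscle cells use, stood at 3.07 RPKM in sham hippocampus and 3.48 in sham prefrontal cortex, 2.51- and 2.85-fold above sham ventricle. In CHF, where ventricular Tpm3 was higher, the brain stood 1.56- and 1.63-fold above the ventricle, short of the threshold. Tpm1 was 38.0-fold higher in sham ventricle than in hippocampus and 33.7-fold higher than in prefrontal cortex. In the brain Tpm1 stood at 7.34 RPKM in CHF and 6.41 in sham hippocampus, and at 6.92 and 7.21 in prefrontal cortex. Tpm2 was 2.49- and 2.06-fold higher in sham ventricle than in the 2 regions, where it ranged from 0.594 to 0.776 RPKM, and Tnnt1, with 25 and 32 brain reads, 6.50- and 4.80-fold.

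Of the 4 genes measured in both sham ventricle and sham hippocampus, 3 were higher in ventricle and 1 lower, against 26.0% higher and 30.1% lower of all genes measured in both. For prefrontal cortex 6 were measured in both, with 5 higher and 1 lower, against 24.9 and 30.1%. The genes with the greatest excess in ventricle were not among the 4, since their brain libraries held under 100 reads.

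The features whose pattern lay nearest were found by Euclidean distance between centered values of log2(RPKM + 0.01) over the 6 libraries, among 9770 features. For Acta1 they were Gpx3 (0.495), Mmrn1 (0.620) and H2-Aa (0.699), none of them a gene of the sarcomere. Mmrn1 stood at 0 RPKM in the hippocampus libraries, so its values there come from the added 0.01 alone. Gpx3, a secreted glutathione peroxidase, stood at 64.4 RPKM in the CHF ventricle and 14.9 in the sham ventricle. For Tnni3 the nearest were Csrp3 (0.796), Mybpc3 (1.12) and Lmod2 (1.12), and for Actc1, at larger distances, Myl3 (3.15), Ankrd1 (3.38) and Myl2 (4.13). Only 6 libraries stand behind each distance.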

How the data were processed

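The authors made stranded total RNA libraries after removal of ribosomal RNA, aligned the reads to GRCm38.p1 in CLC Genomics Workbench (program version not given in the sources used here) and counted them per gene. The deposited counts are unique, total and exon gene reads. The deposited RPKM divides exon reads by the listed length in kilobases and by the library's total gene reads in M. They were recomputed equal in 35485 of 35485 features within 1e-06, and 99.7% of 21888 listed lengths equal the gene's genomic span, so reads in introns count. Tables of the authors' comparisons hold their log2 ratios and were not used. The libraries hold 15.7 to 25.9 M unique reads.

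The main measure was the log2 ratio of RPKM. All 10 genes are named. Of each list, the up to 6 genes past 0.9 with the largest ratios and the gene with the highest RPKM were named. Other list genes were named after their values were seen, as were the genes quoted in further tissues. The genes and lists were chosen with earlier results of these data known. Alternatives used edgeR 4.0.16 (TMM) and DESeq2 1.42.0 factors, CPM, other read minimums, pseudocounts of 0.01 and 1 RPKM, thresholds of 0.8 and 1.0, and a heart muscle reference. Calls and intervals were tested on simulated data with counting error only and with changes well past 0.9. Calls near 0.9 and the spread between mice were not covered by it. Sequences come from GENCODE vM21 and RefSeq (GRCm38.p6), where 10 of 10 symbols matched. Python 3.11.15 and R 4.3.3 were used.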

Additional observations from a re-analysis of the deposited data

Results flagged for a closer look

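Tpm3-rs7, a relative of Tpm3 that has no listed length and so no RPKM, lay outside the comparisons, and its CPM (unique gene reads scaled to the library total) had a log2 ratio, CHF over sham, of 1.22 in left ventricle (interval 0.98 to 1.47). It had 567 unique reads in the CHF ventricle and 192 in the sham ventricle. Its total reads were 2421 and 877, so most of its reads were not unique, and its value is as uncertain as that of Tpm3.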

How the results depend on the processing

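In left ventricle Acta1 and Tpm2 were called higher under every alternative run. The count of lower genes moved from 0 to 1, which was Tnni3, under TMM, under DESeq2 size factors and with totals that leave out the 10 features with the most reads. Tpm3 was called higher relative to the heart muscle cell list and with the reads of Tpm3-rs7, an alternative added after seeing the data. Changes of the read minimum, pseudocount or threshold altered no count of calls in any of the 3 tissues, and no member called by RPKM changed sign. In left ventricle every isoform ratio kept its direction by unique reads, total reads and reads per kilobase of transcript. For the pairs of 2 genes the length cancels out of this change, so the choice of length could not alter it. The ratio of Tnni1 rests on 5 reads in CHF and 3 in sham. No paired analysis was possible because each group has 1 library per tissue. The depth limits Tnni1 in ventricle and the troponins in brain, and without replicate libraries no difference can be set against the spread between mice.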
